A study of Mus musculus with 2 samples.

Results

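Chromatin remodelers and Polycomb proteins are described here through the messenger RNAs of 42 of the 43346 Ensembl genes in the deposited tables, chosen by symbol: 9 Chd helicases, 17 genes of the BAF and ISWI remodelers, 5 Kmt2 genes of histone methylation with the demethylase Kdm1a, and 10 Polycomb genes. The RNA came from hindbrain (cerebellum, pons and medulla) of B6NTac;B6NCrl/Lap mice at postnatal day 0, with both sexes pooled. The series has 1 group and 2 libraries, replicate 1 from 15 mice and replicate 2 from a pool whose size the labels do not give. The labels call the 2 libraries independent isolates, and they were counted here as 2 samples. The labels also give them 1 shared donor identifier, and part of the difference between them could therefore be technical. RNA over 200 nt was depleted of ribosomal RNA, mixed with spike-ins and read as stranded pairs. The animals carry no named allele and received no named agent.

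BAF complexes, the mammalian relatives of yeast SWI/SNF, use ATP to move nucleosomes, and their makeup changes as neural progenitors leave the cell cycle: the progenitor subunits Actl6a (BAF53a) and Phf10 (BAF45a) give way to Actl6b (BAF53b), Dpf1 (BAF45b) and Dpf3 (BAF45c) in neurons. Chd3, Chd4 and Chd5 are alternative motors of the NuRD deacetylase complex, and Kmt2 enzymes methylate lysine 4 of histone H3 at active promoters and enhancers. Polycomb complexes keep genes silent, PRC2 by methylating lysine 27 of histone H3 and PRC1 by adding ubiquitin to histone H2A, and both hold Hox genes in check along the hindbrain.

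The exchange from Actl6a to Actl6b is known to depend partly on microRNAs that repress Actl6a, among them miR-9-3p and miR-124, so the regions that differ between the genes are shown first. The promoters are the 250 bases before the RefSeq start of each gene (GRCm38.p6, mm10), at chr5:137553296-137553545 on the plus strand for Actl6b and chr3:32708296-32708545 on the plus strand for Actl6a, written 5′ to 3′. Capitals mark CCAAT (or ATTGG, its other strand) and the GC box GGGCGG (or CCGCCC).
Actl6b promoter: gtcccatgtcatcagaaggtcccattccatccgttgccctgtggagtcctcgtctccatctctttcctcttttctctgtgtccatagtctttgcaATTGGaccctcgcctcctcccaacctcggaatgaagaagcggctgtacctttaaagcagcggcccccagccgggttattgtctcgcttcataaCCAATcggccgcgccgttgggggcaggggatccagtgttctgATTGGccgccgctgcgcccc
Actl6a promoter: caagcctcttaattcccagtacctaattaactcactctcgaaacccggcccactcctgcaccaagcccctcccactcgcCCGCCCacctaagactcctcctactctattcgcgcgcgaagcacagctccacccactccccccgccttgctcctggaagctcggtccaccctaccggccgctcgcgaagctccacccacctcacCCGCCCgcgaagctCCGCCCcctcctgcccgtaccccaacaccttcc
The Actl6b window held 3 CCAAT matches and 0 GC boxes, and the Actl6a window 0 CCAAT matches and 3 GC boxes. Neither held TATAAA on either strand, and CpG dinucleotides numbered 15 in Actl6b and 19 in Actl6a.

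Promoter sequences were given for 33 of the 42 genes. With both strands searched and no motif contained in another, 11 of the 33 promoters held CCAAT (33.3%, against 34.5% of all 27025 promoters of the same length), 26 held a GC box (78.8%, against 32.9%) and 0 held TATAAA (against 13.0%). Among the 16317 promoters of protein-coding genes the shares were 36.0%, 44.6% and 11.8%. The median promoter of the group held 21 CpG dinucleotides, against 10 in coding genes and 6 in all promoters. A match is a string of letters and was not tested as a binding site.

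The 3′ untranslated region of Actl6a-201, the main Actl6a transcript, carries the complement of the miR-9-3p seed. The mature microRNA (RefSeq, GRCm38.p6, chr3:88215652-88215673, plus strand) has its seed, bases 2 to 8, in capitals, and the 30 bases of the untranslated region (GENCODE M21 transcript, mm10, chr3:32726625-32726654, plus strand) have the match AGCTTTA in capitals.
miR-9-3p: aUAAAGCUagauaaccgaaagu
Actl6a site: cacctcaacgtctgtAGCTTTAgtacactc
The match starts at base 38 of an untranslated region of 371 nt. Among 28227 coding transcripts with one at least as long, 2.89% held AGCTTTA in their first 371 bases. Actl6b-205, the main Actl6b transcript of 1592 nt, held 0 matches. Mature microRNAs are shorter than the RNA kept in these libraries and were not measured.

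All 42 genes were detected in the newborn hindbrain at 1 TPM or more in both libraries, where TPM is an abundance per transcript length with a fixed sum in each library. Of 21474 protein-coding genes, 54.7% met that limit. The median of the 42 genes was 10.5 TPM, against 2.08 TPM over all protein-coding genes and 8.12 TPM over the 11737 detected ones. Levels spanned 1.62 TPM for Cbx7 to 59.9 TPM for Chd3. At a limit of 5 TPM, 29 of the 42 remained, against 32.4% of coding genes. The 6 BAF core genes had a median of 23.5 TPM and the 3 remodeler ATPases 21.3 TPM, while the 4 PRC2 genes had a median of 4.81 TPM and the 6 PRC1 genes 4.48 TPM.

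**Figure D1:**
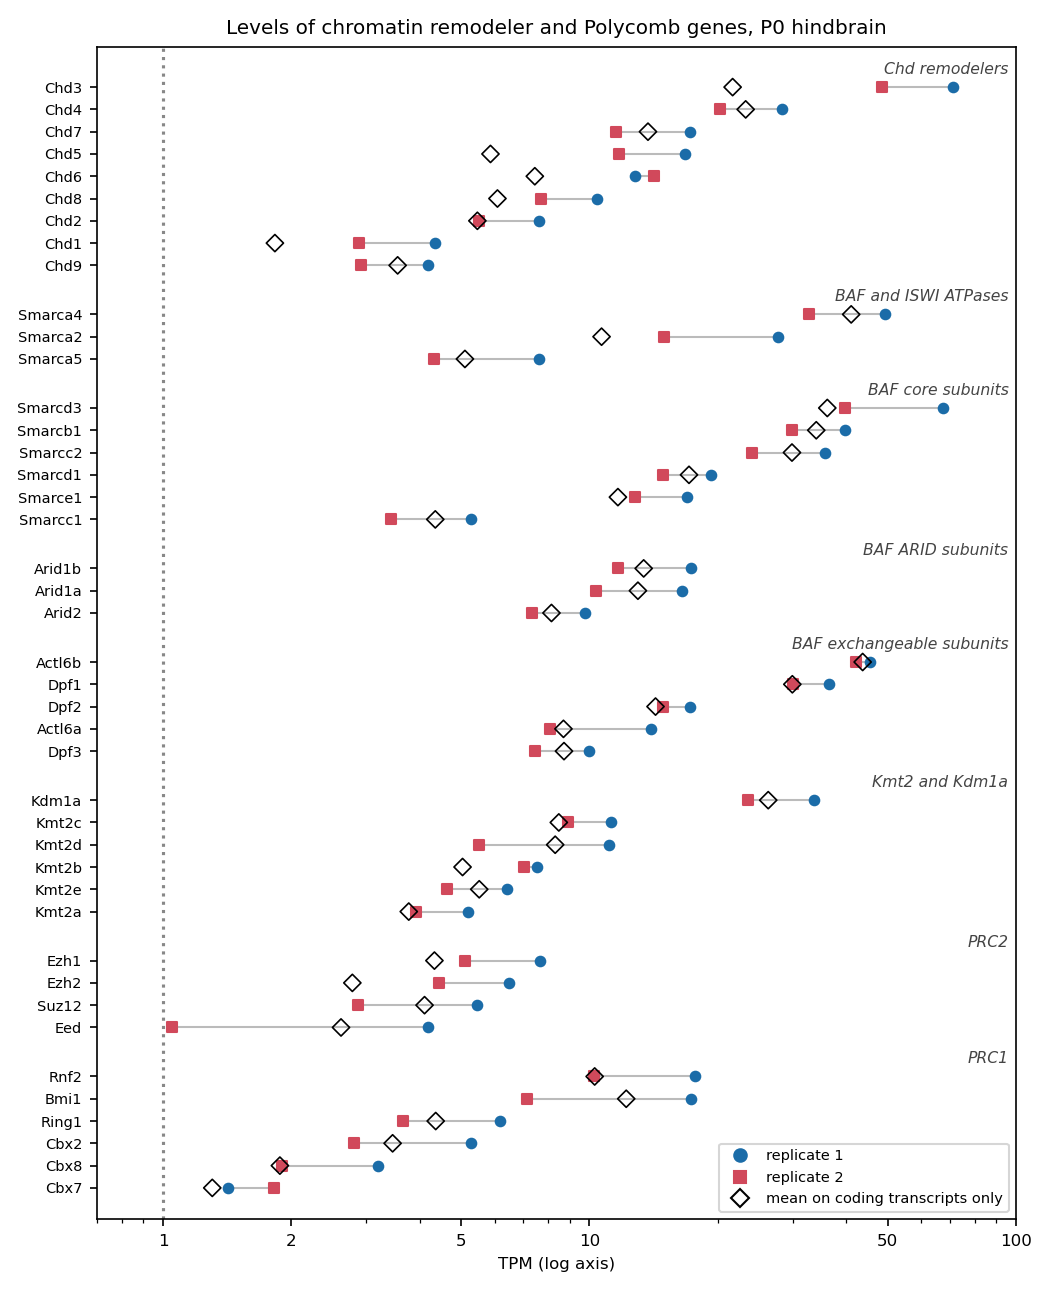
Level in TPM (log axis) of each of the 42 genes, by role. Blue circles are replicate 1, red squares replicate 2, and open diamonds the mean on protein-coding transcripts alone; the dotted line is 1 TPM. Replicate 2 lies left of replicate 1 for 40 of 42 genes, and the Chd3 diamond lies far left of its circle and square.

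The libraries held 54313140 and 77142270 expected counts, and each of the 42 genes had at least 308 counts in each. TPM was lower in replicate 2 for 40 of the 42 genes, with a median ratio of replicate 1 to replicate 2 of 1.46, while the same ratio over 10889 comparably counted coding genes was 1.44. The shift was of like size over coding genes in general, so levels are compared here as ratios within a library. All 8 neuronal marker genes were detected (Tubb3, a neuronal tubulin, had 1094 and 726 TPM), as were all 8 markers of dividing cells and progenitors. The summed level of the latter was 109 and 78.9 TPM, against 1674 and 1132 TPM for the neuronal markers. Tubb3 made up most of the neuronal sum. The median gene had 50.6 TPM among the neuronal markers and 8.9 TPM among those of dividing cells and progenitors. All 8 hindbrain Hox markers and 2 of 8 forebrain markers (Lhx2 and Neurod6) were detected. In bulk tissue, fewer cells of a type and less RNA per cell cannot be told apart.

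The neuronal subunit of the actin-related pair was the higher. Actl6b, the subunit of neurons, had 45.5 TPM in replicate 1 and 42.3 TPM in replicate 2, and ranked 3 among the 42 genes. Actl6a, its progenitor counterpart, had 14.0 and 8.09 TPM. Actl6b was thus higher in both libraries, by 1.70 and 2.37 on the log2 scale (log2 of TPM + 0.1), a mean of 2.03 ± 0.48 (SD, n = 2) or 4.10-fold. The ratio was larger than the spread between the libraries, although with 2 libraries the smallest p of an exact sign-flip test is 0.5 and no p-value is given for any pair.

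Within this pair the libraries moved apart. After scaling for depth, Actl6b was 0.23 higher and Actl6a 0.36 lower in replicate 2 than in replicate 1 on the log2 scale. On coding transcripts alone Actl6b had 43.7 ± 2.21 TPM, Actl6a had 8.69 ± 4.70 TPM, and their ratio was 5.38-fold. That Actl6b mean was the highest of all 42 genes, but Smarca4 was above it in replicate 1 (49.4 against 45.3 TPM). With counts divided by the longest coding transcript Actl6b ranked 4, and its ratio to Actl6a was 3.71-fold. With counts divided by annotated length that ratio was 3.85-fold. The retained-intron transcript Actl6a-203, of 632 nt, took 0.82% of Actl6a TPM in replicate 1 and 17.1% in replicate 2. It held 3 of 1638 expected counts in replicate 1 and 77 of 1812 in replicate 2. Of the exonic bases of Actl6a, 11.6% overlap Mrpl47 on the opposite strand, and whether counting used strand is not stated.

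The BAF45 position showed a graded order. Dpf1, a neuronal PHD finger subunit, had 36.4 and 30.0 TPM, and Dpf2 (BAF45d), the broadly expressed form, had 17.2 and 14.8 TPM. Dpf1 exceeded Dpf2 by 1.04 ± 0.05 (log2, n = 2), or 2.06-fold. Dpf3, the other neuronal form, had 9.97 and 7.46 TPM and lay below Dpf2 by 1.84-fold (log2 −0.88 ± 0.14). The 2 neuronal forms therefore stood on opposite sides of Dpf2 in both libraries.

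Set against Phf10, the progenitor form with 10.7 and 6.79 TPM, Dpf1 was 3.84-fold higher (log2 1.94 ± 0.26), with 6.26-fold on coding transcripts and 1.39-fold when counts were divided by the length of the longest coding transcript. Dpf3 and Phf10 did not differ beyond their spread (log2 0.02 ± 0.17), and their order changed with the library; it was 1.84-fold in favour of Dpf3 on coding transcripts and turned to a log2 ratio of −0.73 by the longest coding transcript. Ss18l1 (CREST), the neuronal counterpart of Ss18, had 28.0 and 15.5 TPM, against 12.7 and 8.57 TPM for Ss18, a 1.99-fold difference (log2 0.99 ± 0.21). Of the neuronal forms, Actl6b, Dpf1 and Ss18l1 were thus above their progenitor or broad counterparts in both libraries, and Dpf3 was not.

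**Figure D2:**
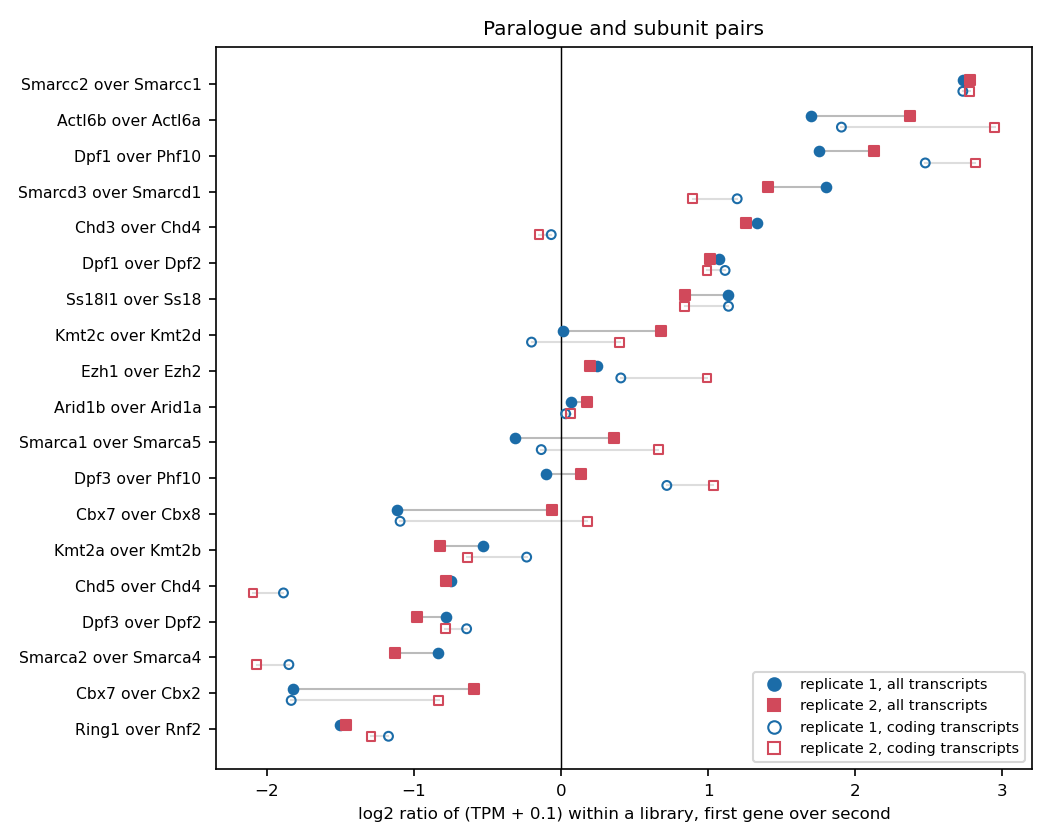
Log2 ratio of (TPM + 0.1) within each library for 19 pairs of genes that take the same place in a complex, first gene over second. Filled symbols use all transcripts and open symbols protein-coding transcripts only (circles replicate 1, squares replicate 2); right of 0 the first gene is higher. The open symbols of Chd3 over Chd4 fall on the other side of 0 from the filled ones.

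Among the motors, Smarca4 (BRG1), the ATPase of progenitor and neuronal BAF alike, had 49.4 and 32.8 TPM and the highest level of the 3. Smarca2 (BRM), its alternative, had 27.7 and 14.9 TPM, so Smarca2 was 1.98-fold below Smarca4 (log2 −0.98 ± 0.21). On coding transcripts alone that gap was 3.89-fold, and Smarca2-215, a transcript of nonsense-mediated decay type, held 43.9% and 43.8% of Smarca2 TPM. That transcript, of 1460 nt, held 1141 and 1258 of the 5273 and 6992 expected counts of Smarca2. Smarca5 (SNF2H), the ISWI ATPase that spaces nucleosomes, had 7.62 and 4.33 TPM. Its paralogue Smarca1 (SNF2L) had 6.11 and 5.59 TPM, and neither was higher in both libraries (log2 0.02 ± 0.48 for Smarca1 over Smarca5).

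Of the scaffold pair, Smarcc2 (BAF170) had 35.6 and 24.1 TPM and Smarcc1 (BAF155) 5.28 and 3.42 TPM. The ratio of 6.75-fold (log2 2.76 ± 0.03) was the largest of the 19 pairs and did not change on coding transcripts. Smarcb1 (SNF5), which contacts the nucleosome's acidic patch, had 39.7 and 29.9 TPM, and Smarce1 (BAF57) had 16.9 and 12.8 TPM. Smarcd3 (BAF60c) had 67.5 and 39.8 TPM, second among the 42 genes, and Smarcd1 (BAF60a) had 19.3 and 14.9 TPM. Smarcd3 exceeded Smarcd1 3.04-fold (log2 1.60 ± 0.28) and 2.06-fold on coding transcripts. Exons on the opposite strand overlap 48.2% of the exonic bases of Smarcd3 (Chpf2 and Mir671) and 12.7% of those of Smarcd1, and their part in these levels was not tested.

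The ARID subunits decide the class of the complex: Arid1a or Arid1b in BAF, Arid2 in PBAF. Arid1b had 17.3 and 11.7 TPM and Arid1a 16.5 and 10.4 TPM, with a ratio of 1.09-fold (log2 0.12 ± 0.08). The authors' intervals of these genes overlapped in replicate 1, and the sign turned (log2 −0.36) when counts were divided by the longest coding transcript. Arid2 had 9.75 and 7.35 TPM. All 14 other BAF and PBAF genes on the list were detected, led by Ss18l1, Bcl7c (20.7 ± 7.13 TPM) and Bcl7a (12.2 ± 3.20 TPM), with Bicral (2.64 ± 0.74 TPM) and Bicra (1.75 ± 0.81 TPM), subunits of the GBAF class, lowest.

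The Chd family had the widest range of any role, 3.55 to 59.9 TPM. Chd3 had 71.3 and 48.4 TPM and Chd4 (Mi-2β), the NuRD motor of progenitors, 28.2 and 20.2 TPM, so Chd3 was 2.45-fold higher (log2 1.29 ± 0.05). That order did not hold on coding transcripts, where Chd3 had 26.1 and 17.3 TPM, Chd4 27.3 and 19.2 TPM, and the log2 ratio was −0.11 ± 0.06. With counts divided by the longest coding transcript it was 0.41. The retained-intron transcript Chd3-203, of 2153 nt, carried 54.3% of Chd3 TPM in replicate 1 and 55.9% in replicate 2. It held 5831 and 8305 of the 18222 and 25174 expected counts of Chd3. Chd5, the motor that increases as neurons differentiate, had 16.8 and 11.7 TPM, 1.70-fold below Chd4, and 3.98-fold below it on coding transcripts.

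The remaining Chd genes were lower than Chd4 in both libraries. Chd7, the CHARGE syndrome gene required in cerebellar granule cell progenitors, had 17.2 and 11.5 TPM. Chd8, a gene of autism risk, had 10.4 and 7.68 TPM, and Chd6, one of the 2 genes whose TPM was higher in replicate 2, had 12.8 and 14.1 TPM. Chd2 had 7.60 and 5.51 TPM. Chd1, which binds methylated lysine 4 of histone H3, had 4.35 and 2.88 TPM, and Chd9 4.18 and 2.91 TPM.

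Beside the motors, all 11 other NuRD genes were detected. Hdac2, a catalytic deacetylase, had 25.8 ± 7.90 TPM, and the histone chaperones Rbbp7 and Rbbp4 had 25.1 ± 9.00 and 17.9 ± 2.81 TPM. Gatad2b (6.48 ± 3.08 TPM) and Mbd2 (4.88 ± 1.74 TPM), a reader of methylated DNA, were lowest. Of the ISWI and INO80 genes 11 of 12 were detected. Srcap, which deposits the histone variant H2A.Z, averaged 36.3 ± 31.2 TPM, Ruvbl2 26.8 ± 8.34 TPM and Baz2b 17.0 ± 7.25 TPM, while Baz2a had 2.77 ± 0.86 TPM and Baz1a 0.62 ± 0.03 TPM. The Srcap level was 58.4 TPM in replicate 1 and 14.3 TPM in replicate 2, although its depth-scaled counts differed by only −0.10 (log2, replicate 2 over replicate 1).

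The lysine 4 methyltransferases lay close together. Kmt2c, which marks enhancers, had 11.2 and 8.90 TPM and Kmt2d, the Kabuki syndrome gene, 11.1 and 5.52 TPM, a log2 ratio of 0.35 ± 0.47 that did not exceed its spread. Kmt2a (MLL1) had 5.19 and 3.93 TPM and Kmt2b 7.53 and 7.04 TPM, so Kmt2a was 1.60-fold lower (log2 −0.68 ± 0.21). The gap was 1.35-fold on coding transcripts (log2 −0.44 ± 0.29), and log2 −0.22 with counts divided by the longest coding transcript. Kmt2e, which binds methylated lysine 4 and is not known to be an active methyltransferase, had 6.40 and 4.64 TPM. The COMPASS partners of these enzymes were detected in 11 of 12 cases, led by Hcfc1 (28.6 ± 4.33 TPM), Men1 (18.5 ± 1.22 TPM) and Ash2l (14.5 ± 5.37 TPM), with Dpy30 (3.52 ± 1.51 TPM) and Setd1b (1.16 ± 0.31 TPM) lowest.

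Kdm1a (LSD1), which removes methyl groups from lysine 4 with the Rcor corepressors, stood above every Kmt2 gene in both libraries at 33.7 and 23.5 TPM. It has a small exon that neurons include, and the transcripts that carry its alternative exons are shown because they are the forms a reader would look for in this tissue. The exon is in capitals, with 15 bases of each neighbouring exon in lower case (GENCODE M21 transcripts, mm10, minus strand): the 12-nt exon of Kdm1a-208 lies at chr4:136563438-136563449 and the 60-nt exon of Kdm1a-202 at chr4:136582040-136582099.
Kdm1a-208: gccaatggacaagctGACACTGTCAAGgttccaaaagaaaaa
Kdm1a-202: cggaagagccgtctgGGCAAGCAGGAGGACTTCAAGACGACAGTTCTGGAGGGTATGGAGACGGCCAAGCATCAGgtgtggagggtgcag
Kdm1a-202, with the 60-nt exon, took 40.5% and 38.0% of Kdm1a, and Kdm1a-203, which lacks it, 38.3% and 31.1%. Kdm1a-208 took 7.77% and 13.5%. That transcript is a fragment of 965 nt, so its share is not an inclusion rate of the small exon.

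All 8 LSD1 partner genes were detected. Phf21a (BHC80), a reader of unmethylated lysine 4, had 34.9 ± 19.8 TPM, and Rcor2, a neural corepressor of the same complex, had 25.8 and 14.1 TPM. Rcor1 had 2.79 ± 0.41 TPM and Rest, the repressor of neuronal genes outside neurons, 2.13 ± 0.55 TPM.

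The mean levels of the 4 PRC2 core genes lay below the median of detected protein-coding genes (8.12 TPM) and above that of all protein-coding genes (2.08 TPM). The catalytic pair of PRC2 was close in level. Ezh1, the methyltransferase of non-dividing cells, had 7.67 and 5.12 TPM, and Ezh2, that of dividing cells, 6.47 and 4.45 TPM. Ezh1 was 1.16-fold higher (log2 0.22 ± 0.03), but the authors' intervals of the 2 genes overlapped in both libraries. On coding transcripts the ratio was 1.62-fold (log2 0.41 and 0.99, mean 0.70 ± 0.41). Processed transcripts held 33.7% and 29.9% of Ezh1 TPM, on few counts. The largest of them in replicate 1, Ezh1-209 of 658 nt, held 57 of 1633 expected counts there and 0 of 2320 in replicate 2. In replicate 2 the largest was Ezh1-208, of 373 nt, with 13.7% of TPM on 9 counts. Of Ezh2 TPM, transcripts of nonsense-mediated decay type held 37.1% and 32.7%, and retained introns 4.02% in replicate 1 and 28.0% in replicate 2. Suz12, the scaffold that holds the core together, had 5.44 and 2.86 TPM.

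Eed, the subunit that reads methylated lysine 27, stood apart between the libraries. It had 599 counts and 4.18 TPM in replicate 1, against 308 counts and 1.05 TPM in replicate 2, and after scaling for depth was lower in replicate 2 by a log2 ratio of −1.46. All of its TPM was on Eed-201 in both libraries, and its effective length differed by a factor of 1.01, so the difference was in the counts. The opposite-strand gene E230029C05Rik overlaps 6.82% of its exonic bases. The log2 ratios of the other PRC2 genes were −0.43 for Suz12, −0.25 for Ezh2 and −0.0026 for Ezh1, the last of which was 0.098 with spike-in totals as the scale. Ratios below 0 were found for 30 of all 42 genes, against 5801 of 10889 comparably counted coding genes. Of 5 PRC2 accessory genes 4 were detected, namely Phf1 (9.80 ± 2.06 TPM), Aebp2 (9.16 ± 2.52 TPM), Mtf2 (8.40 ± 4.09 TPM) and Jarid2 (4.91 ± 1.09 TPM), while Phf19 was listed at 0.47 TPM in each library.

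PRC1 pairs a RING subunit with a PCGF subunit, and its canonical form adds a CBX reader of methylated lysine 27. Rnf2 (RING1B), the main ubiquitin ligase, had 17.7 and 10.2 TPM, and Ring1 (RING1A) had 6.18 and 3.66 TPM. Ring1 was 2.79-fold below Rnf2 (log2 −1.48 ± 0.03), with almost no spread between the libraries. The gap was 2.35-fold on coding transcripts (log2 −1.23 ± 0.08), and log2 −1.14 with counts divided by the longest coding transcript. Bmi1 (PCGF4), which sustains self-renewal of neural progenitors and growth of the cerebellum, had 17.3 and 7.12 TPM. Its scaled counts differed by only −0.16 (log2, replicate 2 over replicate 1): Bmi1-204, of 426 nt, held 38.9% of Bmi1 TPM in replicate 1 and 4.96% in replicate 2 on 61.8 and 7.63 expected counts.

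The CBX readers were the lowest PRC1 genes. Cbx7 had 1.42 and 1.82 TPM, Cbx2 5.28 and 2.80 TPM and Cbx8 3.19 and 1.90 TPM. Cbx7 lay below Cbx2 in both libraries, but by 1.82 on the log2 scale in replicate 1 and 0.59 in replicate 2, so the mean of −1.21 ± 0.87 is poorly fixed. Cbx7 over Cbx8 gave −0.59 ± 0.75 (log2), within its spread. Of 16 other PRC1 genes 15 were detected, and they included CBX and PHC genes well above these: Phc2 had 26.3 ± 3.35 TPM, Cbx6 22.9 ± 3.84 TPM and Kdm2b, which targets PRC1 to CpG islands, 19.4 ± 6.99 TPM. Pcgf6 (2.49 ± 0.62 TPM) and Pcgf5 (0.79 ± 0.52 TPM) were lowest.

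Over the 19 pairs, some of which share a gene, 17 kept their sign in both libraries and the mean exceeded 2 SD in 13. The first-named gene was higher on average in 12. No share over other gene pairs was computed, so these counts describe the listed pairs only. In 1 pair, Chd3 over Chd4, the sign changed on coding transcripts. Transcript types therefore bear on these levels. The median gene of the 42 had 89.0% of its TPM on protein-coding transcripts, against 98.9% over 11737 detected coding genes, and 19 of the 42 exceeded 90%, against 7911 of the 11737. The share was under 50% in 4 genes (9.52%, against 6.71% of detected coding genes), namely Chd3 at 36.1%, Chd5 at 40.6%, Chd1 at 48.9% and Ezh2 at 49.1%. Chd5-203, a processed transcript, held 56.4% and 62.4% of Chd5, and Chd1-203, of the same type, 42.5% and 59.9% of Chd1. These are shares of TPM, in which a short transcript weighs more than its counts. Chd1-203, of 1372 nt, held 160 and 307 of the 1292 and 1755 expected counts of Chd1. Ezh2-209, a nonsense-mediated decay transcript of 666 nt, held 65.7 and 89.4 of the 790 and 948 of Ezh2. Chd5-203, of 6245 nt, held 4596 and 7185 of the 9905 and 13736 of Chd5.

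**Figure D3:**
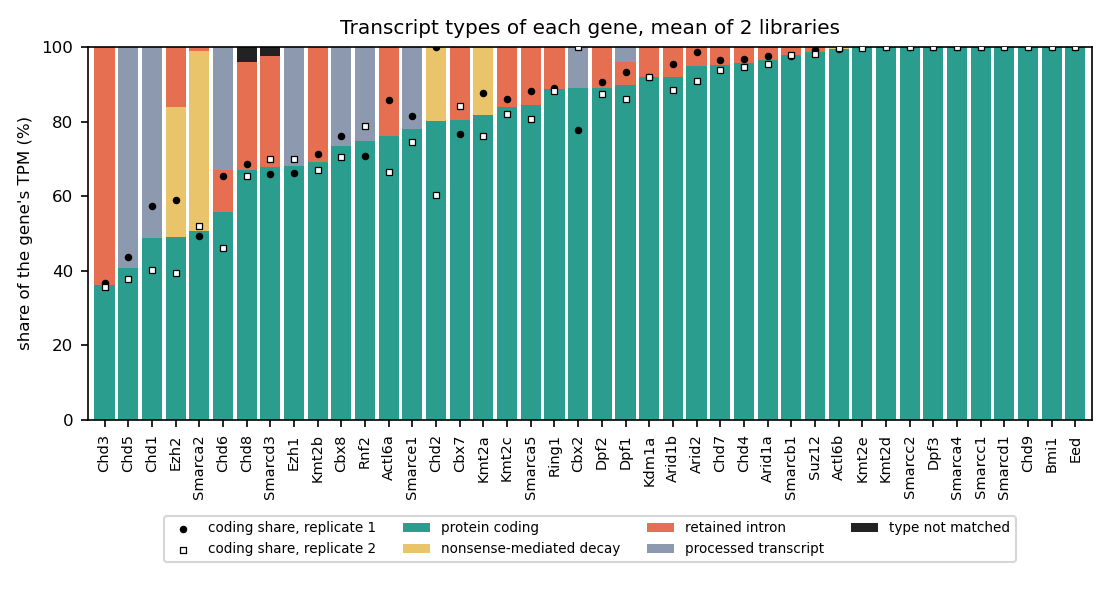
Share of each gene's TPM (%, mean of 2 libraries) by transcript type, with genes ordered by their protein-coding share. Points give the coding share in each library (filled circles replicate 1, open squares replicate 2). Chd3, Chd5, Chd1 and Ezh2 at the left lie under 50%, and their non-coding share is of a different type in Chd3 (retained intron) than in Chd5 and Chd1 (processed transcript).

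Of 275 annotated transcripts of the 42 genes, the one leading by TPM was the same in both libraries for 39 genes. It was of a type other than protein coding in both libraries for Chd1, Chd3, Chd5 and Smarca2. Neither count was computed over other genes, so they describe the 42 genes only. Kmt2d, Ezh2 and Cbx7 changed their leading transcript. In Kmt2d, which encodes a very long messenger, the 856-nt transcript Kmt2d-204 took 43.6% of the gene's TPM in replicate 1 and 22.8% in replicate 2. It held only 215 and 116 of the 10217 and 13864 expected counts of Kmt2d. The gene's TPM differed 2.01-fold between the libraries while its scaled counts differed by −0.07 (log2). Effective length, by which counts are divided to give TPM, differed by over 20% between the libraries for 7 genes: Chd2, Chd6, Smarca2, Kmt2d, Bmi1, Cbx2 and Cbx7. The share of other genes with such a difference was not computed, so whether 7 of 42 is usual is not known.

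Depth-scaled counts of most of the 42 genes were close between the libraries. The log2 ratio of replicate 2 to replicate 1 had a median of −0.06, against 0.01 over the 17632 genes whose mean count reached 10, and it lay within 0.25 of 0 for 33 of the 42 genes, against 9155 of all 17632. It reached 0.5 in size in 1 gene, Eed, against 28.1% of all genes tested and 7.07% of 10889 protein-coding genes counted at least as deeply as the lowest of the 42. The ratio was 0.5 or higher in 0 of the 42 (16.7% of all genes) and −0.5 or lower in 1 (11.4%). After Eed, the ratios farthest from 0 were those of Cbx7 (0.47), Suz12 (−0.43) and Smarca5 (−0.41). With spike-in totals as the scale the median of all genes moved to 0.11 and that of the 42 to 0.04, Eed had −1.36, and Cbx7 reached 0.57.

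**Figure D4:**
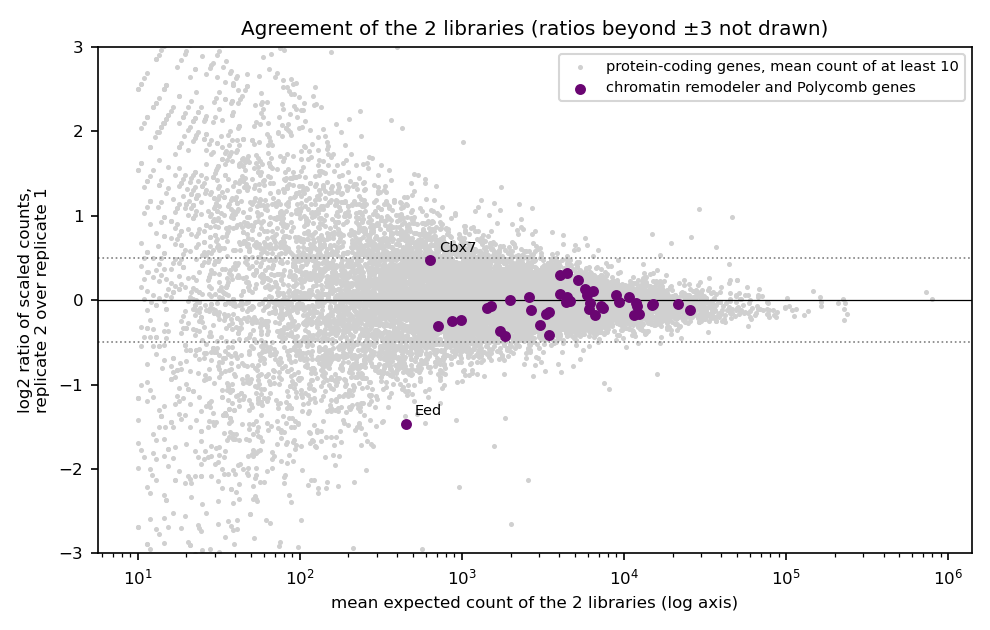
Log2 ratio of scaled counts, replicate 2 over replicate 1, against the mean expected count (log axis) for protein-coding genes whose mean count reached 10 (grey) and the 42 genes (purple). Dotted lines mark a log2 ratio of 0.5 in either direction; Eed, at −1.46, is the only purple point outside them.

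The 78 other genes of the 7 complex lists were detected in 74 cases. Their log2 library ratio was 0.5 or higher for Smarca1, Cxxc1, Pcgf2 and Pcgf5 and −0.5 or lower for Hmg20b and Pcgf1, with Pcgf5 the largest at 1.95 on 43 and 243 counts. PRC2 accessory genes had a median of 0.09.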

How the data were processed

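Hindbrain RNA of 1 group was measured in 2 libraries. Per the file headers and the deposited notes, the authors aligned to the transcriptome (mm10, GENCODE M4) and gave expected counts (estimated fragment counts), TPM and FPKM per gene and per transcript; the sources used here name neither aligner nor quantifier. Deposited percent columns hold the part of a gene's TPM that falls on each transcript, and deposited posterior means and interval bounds (scores of unstated level) accompany them. TPM has a fixed sum per library, so it depends on all other genes and on effective length. Expected counts were whole to within 0.005 for 39 of the 42 genes. GENCODE M21 gave symbols, types and transcript sequences for 42462 of 43346 Ensembl genes (98.0%), and RefSeq tables of GRCm38.p6 gave promoters and miR-9-3p.

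Counts were rounded, rows that name no mouse gene (1.28% and 1.09% of the total) left out, and library ratios computed in edgeR 4.0.16 (R 4.3.3) with TMM scaling and a prior count of 2. The common coefficient of variation was 37.2%. Pair ratios used log2(TPM + 0.1) within a library. No p-value is given, since 2 libraries allow none below 0.5 in an exact sign-flip test. DESeq2 1.42.0 size factors, total counts, spike-in totals, other pseudocounts and filters, posterior means, coding transcripts and annotated length were alternatives. The ratio script was tested on simulated data. All 42 genes are named, as are the 3 highest and 2 lowest of each complex list, except 1 gene that is not reported here. Members, pairs and lists were chosen with earlier results of these data known. Intervals and counts cover counting error only, and reads carry no molecular identifiers.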

Additional observations from a re-analysis of the deposited data

How the results depend on the processing

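All 42 genes stayed detected under every alternative but the 5 TPM limit, which left 29. Their median level and the Actl6b to Actl6a and Cbx7 to Cbx2 ratios moved by less than the spread between the libraries under every alternative that keeps both libraries. Leaving out 1 library cannot move a mean of 2 beyond their SD and says nothing about stability. The median library ratio (−0.0649) was −0.0652 with DESeq2 size factors and turned to 0.036 with spike-in totals. Dpf1 over Dpf2 (log2 1.04) was 0.90 with annotated length, 0.995 with posterior means and 0.67 with the longest coding transcript, an alternative chosen after seeing the data. Dpf3 over Dpf2 (−0.88) was −0.72 on coding transcripts and −0.54 with the longest coding transcript. Ezh1 over Ezh2 (0.22) was 0.35 with annotated length, 0.70 on coding transcripts and 0.50 with the longest coding transcript. Spike-in totals put 2 genes at a library ratio of 0.5 or more in size, in place of 1. Chd3 over Chd4 turned to −0.11 on coding transcripts. Dpf3 over Phf10 turned to −0.0011 with posterior means and −0.73 with the longest coding transcript and ran between −0.10 and 0.13 with 1 library left out. Smarca1 over Smarca5 turned to −0.012 with annotated length and −0.19 with the longest coding transcript and ran between −0.31 and 0.36 with 1 library left out, and Arid1b over Arid1a to −0.36 with the longest coding transcript. With both libraries kept, the 14 remaining pairs stayed within their spread in 56 cases, moved beyond it in 22 and turned in 6. The cause was not tested. Leaving out 1 library gives no library ratio. No paired analysis was possible because the series has 1 group.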
